A study of Mus musculus with 2 samples.

Results

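Layer 4 of the cerebral cortex is a main target of axons from the thalamus, and its excitatory neurons pass sensory signals on to the neurons of the layers above. Rorb, a nuclear receptor related to the retinoic acid receptors, is a widely used marker of these cells, and in rodents it takes part in the sorting of layer 4 neurons into the whisker barrels of the somatosensory cortex. Rorb is also found at lower levels in some neurons of layer 5, so that it is read together with other genes. The neurons described here are 870 of the 17653 barcodes of mouse cortex that passed quality limits, 606 of 9540 in a control library and 264 of 8113 in a library of white matter injury (WMI).

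The members were chosen on their measured counts, and the genes of the rule are therefore described and not tested. A barcode belonged when it held at least 3 unique molecular identifiers (UMIs, each standing for 1 captured RNA molecule) of Rorb and at least 1 UMI of at least 2 of 6 further genes, namely Ccdc3, Kcnh5, Hkdc1, Exph5, 4930467D21Rik and 1700047F07Rik. It also had to hold Slc17a7, the vesicular glutamate transporter of cortical excitatory neurons, no more than 1 UMI of Gad1 and Gad2, which make GABA in inhibitory neurons, and fewer than 4 of the upper-layer genes Ccbe1, Klhl1, L3mbtl4, Pparg, Otof and Met. The quality limits asked for at least 1000 UMIs, at least 500 genes and at most 10% of UMIs from mitochondrial genes, and 748 control and 241 WMI barcodes did not meet them.

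Both libraries came from C57BL/6 mice of 2 weeks of age according to the sample labels, with no transgene or allele named. In the WMI group, the labels give ligation of the right common carotid artery on postnatal day 7 with 1 h of hypoxia and collection of the ligated cortex on day 14, and the control group gave the cortex of the same side. The labels write the surgery under the control sample too, and they speak of nuclei where the study's methods speak of dissociated cells. The study's methods give an earlier day of surgery and a longer hypoxia, and its text gives a younger age at collection. On the control tissue, the study's text speaks of a control hemisphere and a sham group. It also describes several replicates for each side that were integrated, whereas 1 library for each group was analysed here, and how many mice went into each of these libraries is not stated in the labels. With 1 library for each group, the variation between mice cannot be estimated and no difference between control and WMI has a replicate check. The 95% intervals below cover counting error only. They are exact, except for those of the share differences, which combine the limits of both shares and are approximate. A gene is counted as past a fold by the size of its ratio alone.

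The libraries stood apart in sex and in mitochondrial RNA before any layer 4 gene was compared. Of the 606 control members, 563 held a UMI of a Y-linked gene and 0 held Xist, the RNA made from the inactive X chromosome of female cells. Of the 264 WMI members, 195 held a Y-linked UMI, 171 held Xist and 110 held both, so that the WMI library mixed male and female cells and the control library did not. The median mitochondrial share was 0.0430% in control members and 0.286% in WMI members. Depth was alike, with 2736 UMIs in the shallowest, 11629.5 in the median and 45730 in the deepest control member, and with 2293, 11117 and 62760 in the WMI members. The members summed to 7814878 UMIs in the control and 3596958 in the WMI library. The libraries shared 35 barcode sequences among those that passed, and these took in 3 control and 5 WMI members but no barcode that was a member in both. Doublets were kept, and their predicted removal would have taken out 58 control and 22 WMI members.

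The upstream windows of 3 genes are shown because Rorb defines the members, and Whrn and Gm20752 are genes outside the rule that were high in them against other excitatory barcodes. Each window is the 250 bases before the start of a RefSeq transcript on GRCm38.p6, read 5′ to 3′ on the strand of the gene. It lies at chr19:19111197-19111446 on the minus strand for Rorb, at chr4:63495992-63496241 on the minus strand for Whrn and at chr3:159076114-159076363 on the plus strand for Gm20752. Capitals mark GGGCGG or its complement CCGCCC, the core of the GC box.
Rorb: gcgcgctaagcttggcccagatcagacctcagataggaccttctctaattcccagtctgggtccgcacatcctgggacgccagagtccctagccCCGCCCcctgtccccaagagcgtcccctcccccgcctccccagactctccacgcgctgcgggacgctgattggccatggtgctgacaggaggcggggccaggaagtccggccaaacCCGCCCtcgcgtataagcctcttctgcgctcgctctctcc
Whrn: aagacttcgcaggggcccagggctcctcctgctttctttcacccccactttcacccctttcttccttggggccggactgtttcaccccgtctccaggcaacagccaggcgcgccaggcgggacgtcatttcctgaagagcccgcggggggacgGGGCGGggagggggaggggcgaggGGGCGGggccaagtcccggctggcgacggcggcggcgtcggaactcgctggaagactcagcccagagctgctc
Gm20752: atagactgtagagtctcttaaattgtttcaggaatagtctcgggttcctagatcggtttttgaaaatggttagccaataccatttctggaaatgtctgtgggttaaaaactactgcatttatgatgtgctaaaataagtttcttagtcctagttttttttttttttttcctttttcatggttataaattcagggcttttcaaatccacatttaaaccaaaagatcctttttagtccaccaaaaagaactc
These windows of Rorb and Whrn were rich in G and C, at 66% and 69.6%, and each held 2 of these hexamers. Rorb has another RefSeq start, whose window (chr19:19001118-19001367) was at 39.2% G and C and held 0. The window of the noncoding Gm20752 was at 32.4% G and C and held 0. Over 32851 RefSeq starts, 32.7% of windows of this length held GGGCGG on either strand, against 5 of 8 starts of the 7 genes that chose the members and 5 of 11 starts of the genes high in them that had an entry (9 of 15 genes). AGGTCA, the core of the element that receptors of the ROR family are known to bind, was searched as AGGTCA and TGACCT and stood in 14.0% of all windows, in 0 of the 8 and in 0 of the 11. CAGATG, an E-box, stood in 14.4% of all windows (as CAGATG or CATCTG), in 2 of the 8 and in 0 of the 11. A match describes these letters in this window and nothing more.

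The members were a smaller part of the cortex in the WMI library. They made up 6.35% of passing control barcodes (5.87 to 6.86) and 3.25% of passing WMI barcodes (2.88 to 3.66), a difference of -3.10 percentage points (-3.73 to -2.47) and a ratio of 0.512. Excitatory barcodes as a whole went from 45.0% to 34.7% of passing barcodes. Among excitatory barcodes the members were 14.1% in the control (606 of 4294, 13.1 to 15.2) and 9.38% in the WMI library (264 of 2816, 8.32 to 10.5), a difference of -4.74 points (-6.24 to -3.20). The share was thus lower with either denominator. Excitatory barcodes of the WMI library were the deeper ones, with a median of 9680.5 UMIs against 8394 in the control.

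Other excitatory neurons did not follow the same ratio. An upper-layer set, which held at least 4 of the 6 upper-layer genes named above, was 12.6% of control excitatory barcodes (11.6 to 13.6) and 14.7% of those of the WMI library (13.4 to 16.0), a ratio of 1.17. A layer 6 set, which held at least 4 of Foxp2, Hs3st4, Syt6, Tle4, Zfpm2 and Sulf1, was 20.8% (19.6 to 22.1) and 18.1% (16.7 to 19.5), a ratio of 0.868. The ratio of the members was 0.664, the lowest of these sets. For every 100 upper-layer cells there were 112 members in the control and 63.9 in the WMI library, and for every 100 layer 6 cells there were 67.8 and 51.9. With 1 library for each group, a loss of these neurons, a lower level of the genes that choose them and a different piece of cortex cannot be told apart. Among the barcodes with at least 4000 UMIs, each thinned to that depth, with 4267 control and 3065 WMI barcodes under it left out, the members were 183 of 5273 control barcodes (3.47%) and 78 of 5048 WMI barcodes (1.55%), or 11.2% and 6.90% of excitatory ones. These shares are of another population than those above. The upper-layer and layer 6 sets, which rest on the detection of genes, were not recounted at that depth. Their ratios, and the members for every 100 of their cells, are thus not matched for depth.

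**Figure D1:**
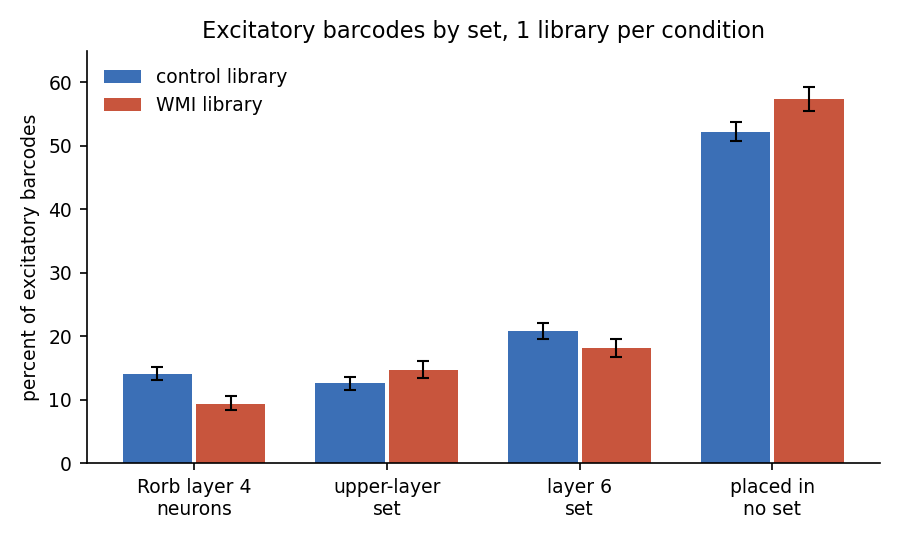
Share of excitatory barcodes (percent) in each set, control in blue and WMI in red, with exact 95% intervals for counting error. The Rorb layer 4 neurons stood at 14.1% and 9.38%, the upper-layer set at 12.6% and 14.7%, and barcodes placed in no set at 52.2% and 57.4%.

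The thresholds ran through a continuous range of cells. Members with 3 or 4 UMIs of Rorb numbered 115 in the control and 52 in the WMI library, and 127 and 51 barcodes that met all else held 2 and fell outside. Levels are given as CPM, the UMIs of a gene summed over the cells of a set and scaled to 1000000 UMIs of that set. The Rorb levels of these neighbours were 299 and 295 CPM inside and 198 and 178 outside. A larger group, 367 control and 273 WMI barcodes, held 1 of the 6 further genes and fell outside, with Rorb at 938 and 912 CPM and median depths of 7019 and 7446 UMIs. Those that held at least 4 upper-layer genes numbered 86 and 32, and those without a UMI of Slc17a7 84 and 38. Within the members, 40.8% of control and 52.7% of WMI cells sat at the minimum of 2 of the 6 genes, while 1.16% and 0.379% held all 6.

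Rorb itself ran from 3 to 132 UMIs per control member, with a median of 12, and from 3 to 84 per WMI member, with a median of 11. Summed over members it was 1282 CPM (1257 to 1307) in the control and 1134 (1099 to 1169) in the WMI library. The level in the upper-layer set was 192 and 107 CPM and that in the layer 6 set 118 and 133. Kcnh5, a voltage-gated potassium channel of the ether-à-go-go family, was found in 593 of 606 and in 255 of 264 members, at 735 and 754 CPM against 313 and 339 in the upper-layer set. With all cells thinned to 2000 UMIs, Rorb was found in 84.0% of control and 81.1% of WMI members and Kcnh5 in 70.6% and 68.6%. In barcodes outside the excitatory set with at least 3 UMIs of the microglial genes P2ry12, Csf1r and Cx3cr1, which should lack these genes, the shares were 29.0% and 21.5% for Rorb and 30.8% and 18.9% for Kcnh5, and their median depth was 3443.5 and 3552 UMIs against 11629.5 and 11117 in the members. Without thinning, Rorb was found in 43.7% and 33.6% and Kcnh5 in 45.8% and 32.6% of those barcodes, and by the rule in all members for Rorb. The thinned shares are taken as background, and barcodes under 2000 UMIs were left out, 13 in the control and 99 in the WMI library, all of them outside the members.

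The other genes of the rule were carried by some members and not by others. Ccdc3, which codes for a secreted protein, summed to 70.4 CPM in control and 50.6 in WMI members, and after thinning it was found in 13.2% and 9.09% of members against 3.12% and 0.978% of the barcodes with microglial genes. Hkdc1, a hexokinase-like protein, summed to 32.0 and 28.9 CPM and was found in 5.45% and 6.44% of members against 0.935% and 0.489%. Exph5, a protein of vesicle traffic that binds Rab27, summed to 50.8 and 41.1 CPM and was found in 9.57% and 7.95% against 2.49% and 1.37%. Since members had to hold at least 2 of the 6 genes, a higher share than in other barcodes is set by the rule. The long noncoding RNA 1700047F07Rik summed to 78.1 and 58.7 CPM, and 4930467D21Rik to 69.6 and 69.5. Pparg, a nuclear receptor that the rule counts among the upper-layer genes, was nevertheless at 179 and 126 CPM. Of the other upper-layer genes of the rule, L3mbtl4 was at 38.9 and 69.5 CPM, Met at 35.1 and 48.9, Klhl1 at 31.0 and 33.4, Ccbe1 at 20.3 and 21.96 and Otof at 3.33 and 8.34. Slc17a7 was level at 240 and 245 CPM, and Gad1 and Gad2, held to 1 UMI by the rule, were at 4.61 and 3.89 and at 8.96 and 6.67.

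Members that carried more of the 6 genes also carried more of several genes that the rule did not use. Whrn, which codes for the scaffold protein whirlin, was at 82.6, 106 and 149 CPM in control members with 2, 3 and at least 4 of the 6 genes, and at 66.3, 94.0 and 130 in WMI members. Col26a1, a collagen, went from 68.9 to 117 and 152 in the control and from 54.8 to 104 and 131 in the WMI library. Thsd7a, a thrombospondin-domain protein, went from 243 to 322 and 434 and from 283 to 371 and 493. All 3 were in the same order in both libraries. Depth moved with these groups, from a median of 10473 UMIs to 11658 and 13429 in the control and from 10852 to 10537 and 13891 in the WMI library, and its part in the order was not tested. Hs3st4, a heparan sulfate sulfotransferase found in deep layers, was in the same order in the control, at 663, 722 and 760 CPM, and not in the WMI library, at 641, 556 and 641. Apoe, the lipid carrier made mostly by glia, was highest in the members with the fewest of the 6 genes, at 68.2 against 40.8 and 41.7 in the control and at 521 against 461 and 382 in the WMI library.

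Named as highest in the members were 15 genes outside the rule, ranked against all other excitatory barcodes of the same library, by the weaker of the ratios in the 2 libraries and with at least 200 UMIs in members. As the members were chosen on their counts, these ratios are a description. Gm20752, a long noncoding RNA on chromosome 3 (159076364 to 159308081 of GRCm38, plus strand), stood at 147 CPM in control members against 22.1 in other excitatory barcodes and at 77.3 against 10.8 in the WMI library, log2 ratios of 2.73 (2.60 to 2.87) and 2.84 (2.60 to 3.08). It overlapped no other annotated gene, and the nearest coding gene, Depdc1a, lay 187352 bases away. Col26a1 stood at 111 against 22.8 and at 85.1 against 17.2 (2.28 and 2.30). Whrn stood at 111 against 26.1 and at 87.9 against 21.97 (2.09 and 2.00). After thinning to 2000 UMIs, Whrn was found in 18.6% of control and 15.5% of WMI members. The shares in the upper-layer set were 3.70% and 2.91%. In the barcodes with microglial genes, taken above as background, they were 22.4% and 14.6%. Whrn was thus near that background in the members, and not particular to them among all barcodes. All 15 genes were at least 2-fold higher in the members of both libraries.

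Several of these genes code for proteins of the cell surface and of signalling. Boc, a receptor that binds Sonic hedgehog, stood at 99.6 CPM against 36.1 in the control and at 96.2 against 34.4 in the WMI library. Rcan2, a regulator of the phosphatase calcineurin, stood at 255 against 90.1 and at 178 against 61.5. Thsd7a stood at 329 against 131 and at 353 against 130. Cpne9, a calcium-dependent membrane-binding protein of the copine family, had log2 ratios of 1.79 and 1.97, Dock5, an exchange factor for Rac, 1.61 and 2.37, and Col8a1, a short-chain collagen, 1.60 and 1.72. The rest were Pld5 (1.46 and 1.67), Ankfn1 (1.66 and 1.39), Lhfp (1.31 and 1.45) and the noncoding 4921539H07Rik (1.86 and 1.79), 4933411E02Rik (1.41 in both) and Gm13601 (1.61 and 1.64), which lies antisense to Xirp2. Against the upper-layer set alone all 15 were also higher in both libraries, the least of them Ankfn1 with log2 ratios of 1.02 and 0.85.

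**Figure D2:**
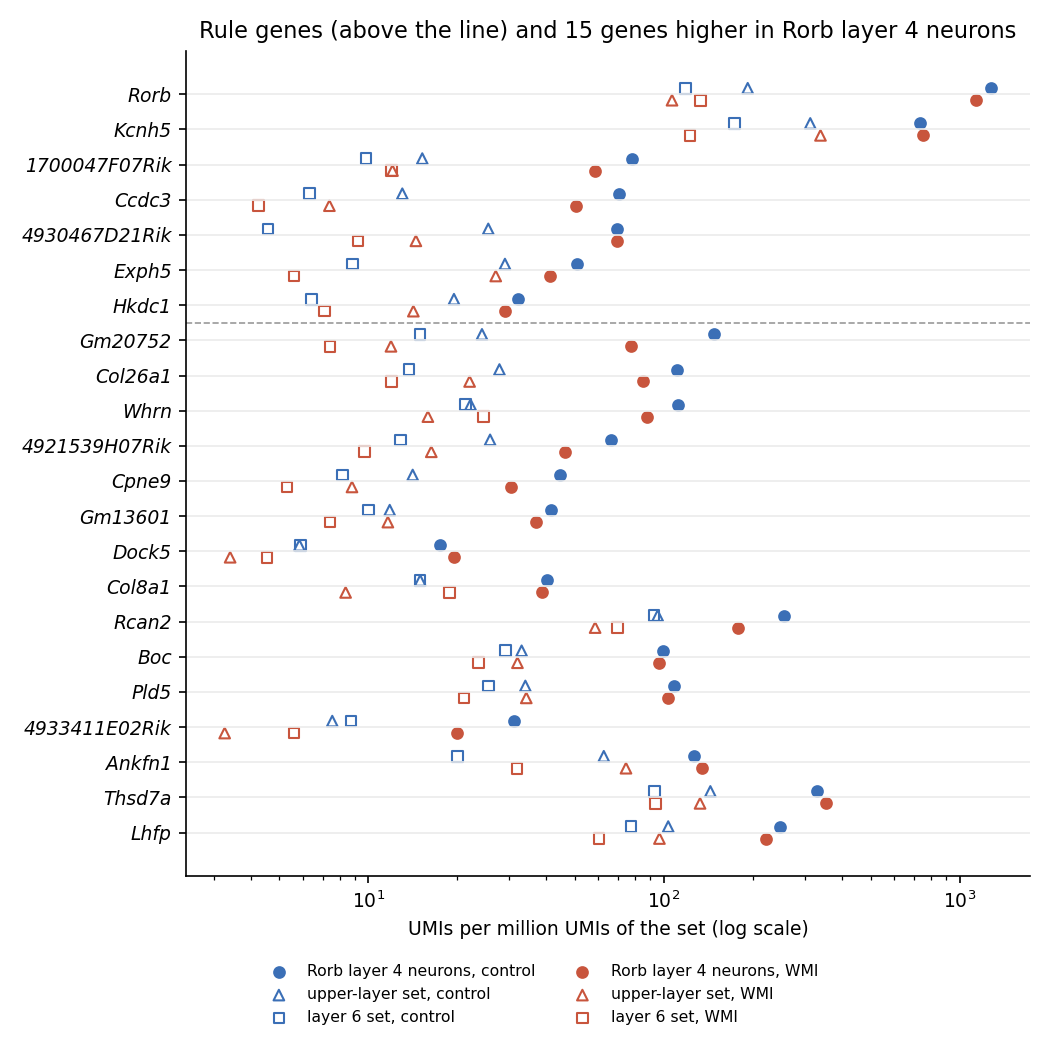
Level in UMIs CPM UMIs of the set, on a log scale, for 7 genes of the rule (above the dashed line) and the 15 genes named as highest outside it, in blue for control and red for WMI. Filled circles are the Rorb layer 4 neurons, triangles the upper-layer set and squares the layer 6 set, and the circles lie to the right of the open symbols of their library for all 15 genes.

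At the other end, the 10 genes named as lowest in the members had few UMIs there. Syt6, a synaptotagmin of layer 6 neurons, was at 9.98 CPM against 39.8 in the control and at 2.50 against 13.3 in the WMI library. Adamts2, a protease that processes procollagen, was at 11.4 against 51.5 and at 12.8 against 48.4, log2 ratios of -2.18 and -1.92. Oprk1, the kappa opioid receptor, rested on 11 and 3 member UMIs (-2.27 and -2.75). Col18a1, Tnni1, Pik3r5, Gm15261, Hba-a2 and P2ry6 each had at most 9 UMIs in the members of either library. Against the upper-layer set alone, Syt6 was higher in control members (log2 0.40) and lower in WMI members (-0.91).

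The label of the members was set beside lists of layer genes that did not enter the rule. The lists were chosen with earlier results of these data known. Whrn, a gene of the layer 4 list, is also among the genes named above as highest in the members. The counts are thus a description and no independent check. A list gene was counted when it was at least 1.5-fold above, or below, the other excitatory barcodes in both libraries, which was so for 1.56% of 11554 genes with at least 50 member UMIs upward and for 3.15% downward. Of 9 measured layer 4 genes, 6 were above and 0 below. Unc5d, a netrin receptor, was at 2215 against 840 CPM in the control and at 1853 against 895 in the WMI library, Brinp3 at 1808 against 786 and at 1441 against 868, and Cux2, a homeodomain factor of layers 2 to 4, at 341 against 178 and at 232 against 135. The others above were Whrn, Zmat4 and Plcxd2. The summed list was at 5454 against 2379 CPM in the control and at 4368 against 2440 in the WMI library. The layer 4 genes Rspo1, Scnn1a and Endou were too sparse to read, with 23, 26 and 5 UMIs in control and 13, 4 and 2 in WMI members.

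Deep-layer genes lay on the other side. Of 12 layer 5 genes, 6 were below in both libraries, among them Fezf2, the factor that specifies subcortical projection neurons, at 8.32 against 13.5 CPM and at 8.06 against 14.2, and Bcl11b at 17.3 against 71.2 and at 35.3 against 74.9. Tshz2, a gene of near-projecting neurons, was at 208 against 701 and at 252 against 894. Fam19a2 was the exception, at 1016 against 533 and at 1038 against 643. Of 7 measured layer 6 and subplate genes, 5 were below (Foxp2, Tle4, Syt6, Zfpm2 and Sulf1). Hs3st4 was within 1.5-fold of the others, at 713 against 815 and at 618 against 674, but the others include the layer 6 set, at 2069 and 1888, and the level in the upper-layer set was 246 and 252. The layer 6 list summed to 1069 and 1044 CPM in the members, 646 and 787 in the upper-layer set and 4188 and 3658 in the layer 6 set. The layer 6 set was chosen on genes of this list, Hs3st4 among them, so that its high level is set by that choice. Of 10 upper-layer genes outside the rule, 0 were above and 1 below, the cadherin Cdh13 at 250 against 558 and at 363 against 643. Against the upper-layer set Foxp2 was also higher in the members, at 48.4 against 43.2 and at 30.03 against 19.9, and so was Tle4, at 68.2 against 60.3 and at 78.96 against 54.2. Against all other excitatory barcodes most of these genes did not go against the label, with Fam19a2 as the exception, and layer 5 neurons that carry Rorb and lack these layer 5 genes would also meet the rule.

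**Figure D3:**
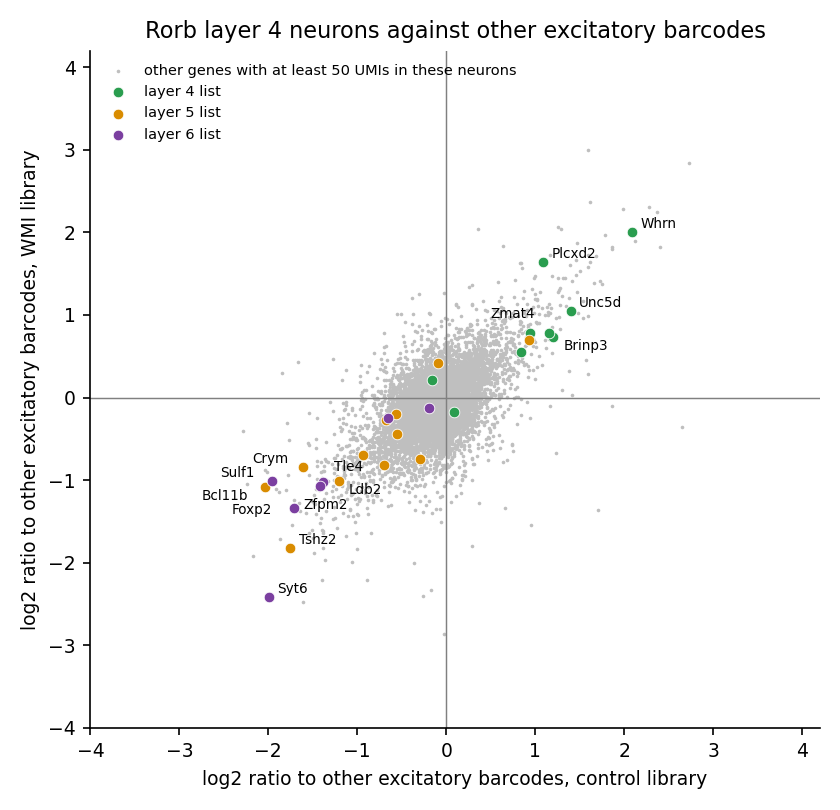
Log2 ratio of Rorb layer 4 neurons to all other excitatory barcodes in the control library (x axis) and in the WMI library (y axis), 1 point for each gene outside the rule with at least 50 UMIs in these neurons. Layer 4 genes (green) such as Whrn (2.09 and 2.00) lie to the upper right, and layer 5 (orange) and layer 6 (purple) genes such as Tshz2 (-1.75 and -1.83) and Syt6 (-2.00 and -2.41) to the lower left.

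Among nuclear receptors, the paralogue of Rorb was also high in the members. Rora was at 2948 CPM in control members against 1448 in other excitatory barcodes and at 2755 against 1211 in the WMI library, log2 ratios of 1.03 and 1.19. Of the 14 measured nuclear receptors Rora was the only one above 1.5-fold in both libraries, against 1.56% of all genes. Nr4a2, a factor of the subplate and claustrum, was the only one below (3.15% of all genes were), at 8.45 against 20.2 and at 9.17 against 23.0. Thrb, the thyroid hormone receptor beta, was near the others, at 717 against 662 and at 637 against 642, and so was Nr2f1, a factor that patterns sensory cortex, at 69.7 against 54.1 and at 64.2 against 56.7.

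Potassium channel genes lay on both sides and glutamate receptor genes on the lower side, against 1.56% of all genes above and 3.15% below. Of 29 potassium channel genes, 3 were above in both libraries, namely Kcnh1, the closest relative of Kcnh5, at 473 against 232 CPM and at 404 against 188, Kcnh8 and the leak channel Kcnk2, and 3 were below, namely Kcna1, Kcnip1 and Kcnn3. Of 25 glutamate receptor genes, 0 were above and 6 below. The kainate receptor subunits Grik3 and Grik4 were at 70.5 against 184 and at 55.3 against 156 in the control, and at 52.0 against 159 and at 51.7 against 168 in the WMI library. The NMDA receptor subunit Grin3a was at 50.03 against 109 and at 114 against 171, and Grm8 and the kainate receptor partner Neto1 were among the others below. Of 12 GABA-A receptor subunits, 0 were past 1.5-fold in either direction in both libraries.

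Guidance genes past 1.5-fold lay mostly on the lower side and cadherin genes on both sides, against 1.56% of all genes above and 3.15% below. Of 29 axon guidance genes, Plxnd1, a semaphorin receptor, was above at 46.8 against 23.4 CPM and at 52.0 against 22.8. Below were 6, among them its ligand Sema3e (32.1 against 75.3 and 43.9 against 70.9) and the neuropilins Nrp1 (71.0 against 202 and 105 against 250) and Nrp2 (13.1 against 28.4 and 33.4 against 78.3). Of 18 cadherin genes, Cdh6 and Cdh12 were above and Cdh9 and Cdh18 below. Cdh6 was at 310 against 167 and at 316 against 159, and Cdh18 at 330 against 864 and at 386 against 714. Of 19 measured genes of barrel formation and the thalamocortical synapse, among them the adenylate cyclase Adcy1 and the phospholipase Plcb1, 0 were above and 2 below (Mdga1 and Nptx1). Plcb1 was at 1903 against 1782 and at 1777 against 1596.

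Between WMI and control members, few genes differed by 2-fold. Of 6402 genes with at least 200 UMIs, 44 (0.687%) were at least 2-fold higher and 32 (0.5%) at least 2-fold lower in the WMI members, and the percentiles 5 and 95 of the log2 ratios were -0.45 and 0.47. Of the 44 higher genes 39 were protein coding. Of the 32 lower genes 7 were, against 92.5% of all genes compared, while all noncoding genes together had a median log2 ratio of -0.00076.

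The 12 highest genes comprised Xist, 2 mitochondrially encoded genes and 9 others, among them the following. Apoe was at 51.1 CPM in control and 474 in WMI members, a log2 ratio of 3.21 (3.06 to 3.38). Ctsd, the lysosomal protease cathepsin D, was at 20.6 and 170 (3.05), Ctsb, cathepsin B, at 31.0 and 129 (2.06), and Grn, the lysosomal protein progranulin, at 13.9 and 62.8 (2.17). C1qb, a chain of complement C1q made by microglia, was at 8.19 and 38.6 (2.24), and Abca1, a cholesterol exporter, at 15.4 and 68.9 (2.17). The other sets had similar values, with log2 ratios of Apoe of 3.16 in the upper-layer and 3.06 in the layer 6 set, of Ctsd of 2.81 and 2.91 and of Grn of 1.63 and 1.74. Apoe was found in all 264 WMI members, from 1 to 30 UMIs, and in 261 of 606 control members, from 0 to 9.

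The same RNAs were plentiful outside neurons in the WMI library. Apoe was at 97.5 CPM over all passing control barcodes and at 1024 over those of the WMI library. In the barcodes with microglial genes described above (334 control and 1122 WMI), it was at 171 and 3259. In the barcodes left out by the quality limits it was at 280 and 2609. The whole list of 14 microglia markers summed to 157 CPM in control and 825 in WMI members, and 10 of its 11 measured genes were at least 1.5-fold higher, against 6.44% of 11554 genes with at least 50 UMIs. Apoe gave the most UMIs to that sum, and without it the list was at 106 and 351. The remaining measured gene was P2ry12, a receptor of resting microglia, at 16.0 and 16.1, while Spp1, osteopontin, went from 2 to 121 UMIs (log2 7.04, 5.15 to 10.10). Tmem119, another marker of resting microglia, had 28 and 12 UMIs, and no gene of the list was at 0. The summed list was at 151 and 699 CPM in the upper-layer set and at 208 and 985 in the layer 6 set. How much of the Apoe and lysosomal RNA in the members was free RNA of other cells was not tested.

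Mitochondrially encoded genes were higher throughout. All 9 measured genes were at least 1.5-fold higher in WMI members, against 6.44% of all genes, with a median log2 ratio of 1.59. With male cells alone 8 were, without mt-Nd5 (0.49). mt-Cytb, cytochrome b of complex III, was at 319 and 1177 CPM (1.88), mt-Nd1, a subunit of complex I, at 241 and 768 (1.67), and mt-Co1, a subunit of complex IV, at 57.1 and 125 (1.13). The other sets had larger ratios of mt-Cytb, 2.55 in the upper-layer and 2.06 in the layer 6 set. In the barcodes left out by the limits, mt-Cytb was at 2074 and 15718 CPM.

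Xist led the list by size, with 0 UMIs in control and 2032 in WMI members, at least 1472-fold higher when the control is set to 3 counts over all members. Of the other 11 highest genes, 3 were also compared between WMI cells of either sex, with Rorb. WMI members with at least 5 UMIs of Xist (86 cells) and WMI members with Y-linked and no Xist UMIs (85 cells) had Apoe at 450 and 487 CPM, Ctsd at 162 and 182 and Rorb at 1061 and 1167. The level of mt-Cytb was 1304 (1243 to 1368) in the former and 1099 (1038 to 1163) in the latter. These intervals leave out the spread between cells, and mt-Cytb ran from 0 to 139 UMIs per WMI member. Gm20752 differed more, at 60.9 (48.2 to 76.0) in the former and 106 (87.8 to 127) in the latter, and so did Grin3a, at 123 (105 to 144) and 81.5 (65.4 to 100.3). With male cells alone, 563 control and 85 WMI, 32 of 5283 genes were past 2-fold higher and 55 lower. Of 61 calls past 1.5-fold in the gene lists, the sex chromosome list left out, 12 ended with male cells alone and 35 others appeared, and those that ended are named beside their lists.

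Noncoding RNAs made up most of the lower side, 25 of 32 genes. Gm26906, a noncoding RNA on chromosome 12 (109568628 to 109571723, minus strand) that overlaps the imprinted Meg3 on the opposite strand, was at 63.2 CPM in control and 10.6 in WMI members, a log2 ratio of -2.58 (-3.10 to -2.10). Sorbs2os was at 67.4 and 22.5 (-1.58), Gm26565 at 110 and 38.6 (-1.50), and 4930587E11Rik at 40.9 and 12.8 (-1.68). Lrtm1, a transmembrane protein whose gene lies inside Cacna2d3 on the opposite strand, was the coding gene among the 12 lowest, at 43.0 and 11.7 (-1.88). Of these 12 genes, 10 overlapped a coding gene, a count that was not set against the share over all genes or all noncoding genes. Gm26906 was not among the 10, as Meg3 is not a coding gene. Among the overlapped genes, the log2 ratios were 0.11 for Meg3, -0.25 for Sorbs2, -0.09 for Celf2 (at Gm26565), -0.10 for Cntn3 (at 4930587E11Rik) and -0.28 for Cacna2d3. Genes overlapped by the rest of the 12 are not given here. Gm26906 was also lower in the upper-layer (-2.28) and layer 6 (-2.36) sets and over all passing barcodes, at 55.7 and 10.3 CPM. Lower coding genes past 2-fold included Prpf4b, a splicing kinase, at 204 and 98.4 (-1.05), and Glp2r, a peptide hormone receptor, at 53.0 and 26.4.

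**Figure D4:**
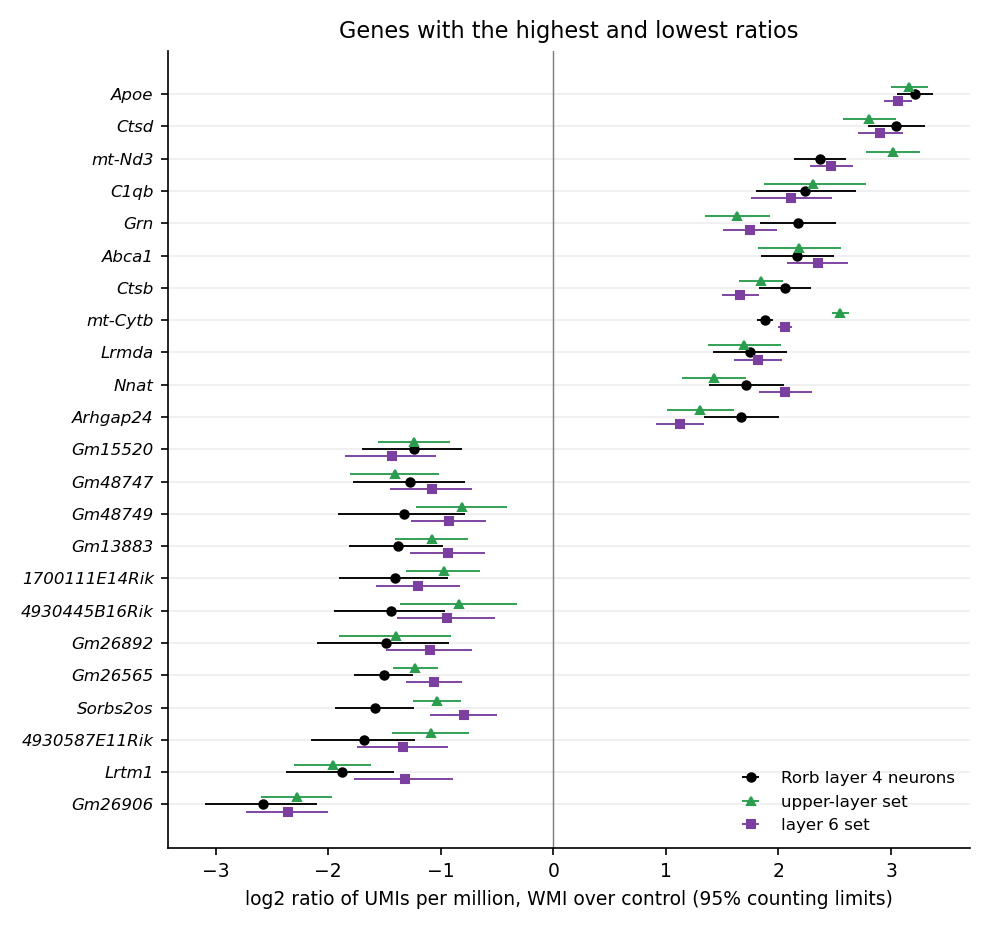
Log2 ratio, WMI over control, of the named highest and lowest genes in the Rorb layer 4 neurons (black), the upper-layer set (green) and the layer 6 set (purple), with exact 95% intervals for counting error and with Xist left out. Apoe stood at 3.21, 3.16 and 3.06 and Gm26906 at -2.58, -2.28 and -2.36, and all genes shown lie on the same side of 0 in the 3 sets.

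Layer 4 genes were mostly under 1.5-fold between WMI and control members. Of the 9 measured layer 4 genes, 1 (Zmat4, 417 and 263 CPM, log2 -0.66) was at least 1.5-fold lower and 0 higher, against 5.97% and 6.44% of all genes, and the median of the list was -0.33 where that of all genes was 0.01. With male cells alone Zmat4 was at -0.50 and under 1.5-fold, while Plcxd2 (0.67) and Lmo3 (0.64) were past it. Cux2 was at 341 and 232 (-0.55, -0.67 to -0.44), Cux1 at 398 and 285 (-0.48), Brinp3 at 1808 and 1441 (-0.33) and Unc5d at 2215 and 1853 (-0.26). The other way went Plcxd2, at 39.3 and 53.9 (0.46), Btbd3, a regulator of dendrite orientation in layer 4, at 41.1 and 53.1 (0.37), and Lmo3, at 76.3 and 93.1 (0.29). Brinp3 and Unc5d were not lower in the layer 6 set (0.61 and 0.19), while Cux2 was (-0.47). In the upper-layer set the log2 ratios were -0.34 for Zmat4, -0.30 for Cux2, -0.28 for Cux1, -0.08 for Brinp3 and 0.10 for Unc5d. Outside the lists, Gm20752 was at 147 and 77.3 (-0.93), with -1.02 in the upper-layer and -1.01 in the layer 6 set but -0.44 in members of male cells alone, Rcan2 at 255 and 178 (-0.52) and Col26a1 at 111 and 85.1 (-0.38), while Thsd7a was at 329 and 353 (0.10) and Boc at 99.6 and 96.2 (-0.05).

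Of 12 layer 5 genes, 4 were at least 1.5-fold higher in WMI members and 0 lower, against 6.44% and 5.97% of all genes, with a median log2 ratio of 0.41. The summed list went from 1630 to 1859 CPM in the members, from 1607 to 2007 in the upper-layer set and from 2266 to 2678 in the layer 6 set, so that a higher level was not particular to the members. Bcl11b was at 17.3 and 35.3 CPM (1.03), with ratios of 0.11 in the upper-layer and -0.15 in the layer 6 set. Parm1 was at 21.4 and 37.0 (0.79), Crym, a thyroid hormone binding protein, at 7.42 and 13.1 (0.82), and Vwc2l at 57.2 and 91.5 (0.68). The ratios in the upper-layer and layer 6 sets were 0.33 and 0.62 for Parm1, 0.41 and -0.09 for Crym and 0.39 and 0.72 for Vwc2l. With male cells alone, Bcl11b (1.13) and Crym (0.84) stayed past 1.5-fold, Parm1 (0.56) and Vwc2l (0.13) did not, and Deptor, at -0.37 with all cells, was at -0.88. Of the 7 measured layer 6 genes, Sulf1 was higher, at 5.89 and 18.1 (1.62), and Foxp2 at 48.4 and 30.03 (-0.69) and Syt6 (78 and 9 UMIs, -2.00) were lower.

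Most lists of neuronal function had medians near 0 with few genes past 1.5-fold, counts to be read against the 6.44% of all genes that were higher and the 5.97% that were lower. Of 25 glutamate receptor genes, Grin3a was higher, at 50.03 and 114 CPM (1.18, 0.98 to 1.39), with ratios of 0.68 and 0.86 in the upper-layer and layer 6 sets, and Grik1, at 199 and 132 (-0.59), and Grin2c (47 and 13 UMIs) were lower. With male cells alone Grin3a was at 0.72 and Grik1 at -0.15, under 1.5-fold. Of 29 axon guidance genes 2 were higher, Nrp2 at 13.1 and 33.4 (1.35) and Plxna1 at 23.2 and 35.6 (0.62), the latter at 0.32 with male cells alone, where 4 guidance genes were lower. Of 18 cadherin genes 4 were higher and 0 lower, namely Cdh4 at 38.004 and 74.2 (0.97), Pcdh19 at 41.6 and 78.7 (0.92), Pcdh17 and Cdh7. Of 12 GABA-A receptor subunits 0 were past 1.5-fold, and of 29 potassium channel genes 1 was, Kcna1, at 23.3 and 14.2 (-0.72). Of 21 mature synapse genes 2 were lower, the neurofilaments Nefl (116 and 27 UMIs, -0.98) and Nefm (44 and 10 UMIs, -1.02). Of 19 measured barrel and thalamocortical synapse genes 1 was higher, the growth factor receptor Fgfr1 (77 and 68 UMIs, 0.94, and 0.46 with male cells alone), and of 14 nuclear receptors 2 were, Nr2f2 (41 and 58 UMIs, 1.62) and Rarb (88 and 64 UMIs, 0.66).

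Some genes of activity and of oxygen supply were past 1.5-fold. Of 8 measured immediate-early genes, which neurons switch on within minutes of activity, 4 were at least 1.5-fold higher (6.44% of all genes were) and 0 lower, with a median of 0.46. The summed list went from 97.9 to 138 CPM in the members, from 79.5 to 107 in the upper-layer set and from 72.6 to 88.9 in the layer 6 set. A higher level was thus not particular to the members. Egr1 was at 18.3 and 28.1 CPM (0.62, 0.24 to 1.00) and Egr3 at 8.83 and 16.7 (0.92), while Junb and Npas4 had under 60 UMIs in each library and were under 1.5-fold with male cells alone (0.44 for each). The remaining 9 genes of this list, Fos among them, had too few UMIs to be measured. Of 20 measured genes of hypoxia and glycolysis, 0 were higher and 3 lower (5.97% of all genes were), with a median of -0.17, namely Vegfa, the vascular growth factor induced by low oxygen, at 20.2 and 13.3 (-0.60), Eno1 at 26.6 and 17.5 (-0.60) and Pdk1 at 18.7 and 11.4 (-0.71). Of 7 measured stress genes, the chaperone Hspa5 was higher, at 30.3 and 52.3 (0.79). Of 16 measured immature neuron genes, Tubb2b was higher (45 and 36 UMIs, 0.80) and Tmsb10 lower (193 and 56 UMIs, -0.67), but with male cells alone Tubb2b turned to -0.66 (43 and 4 UMIs) and Tmsb10 was at -0.065. Of 11 measured excitatory neuron genes 0 were past 1.5-fold, and Camk2a, the calcium-dependent kinase of the synapse, was at 750 and 565 (-0.41).

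**Figure D5:**
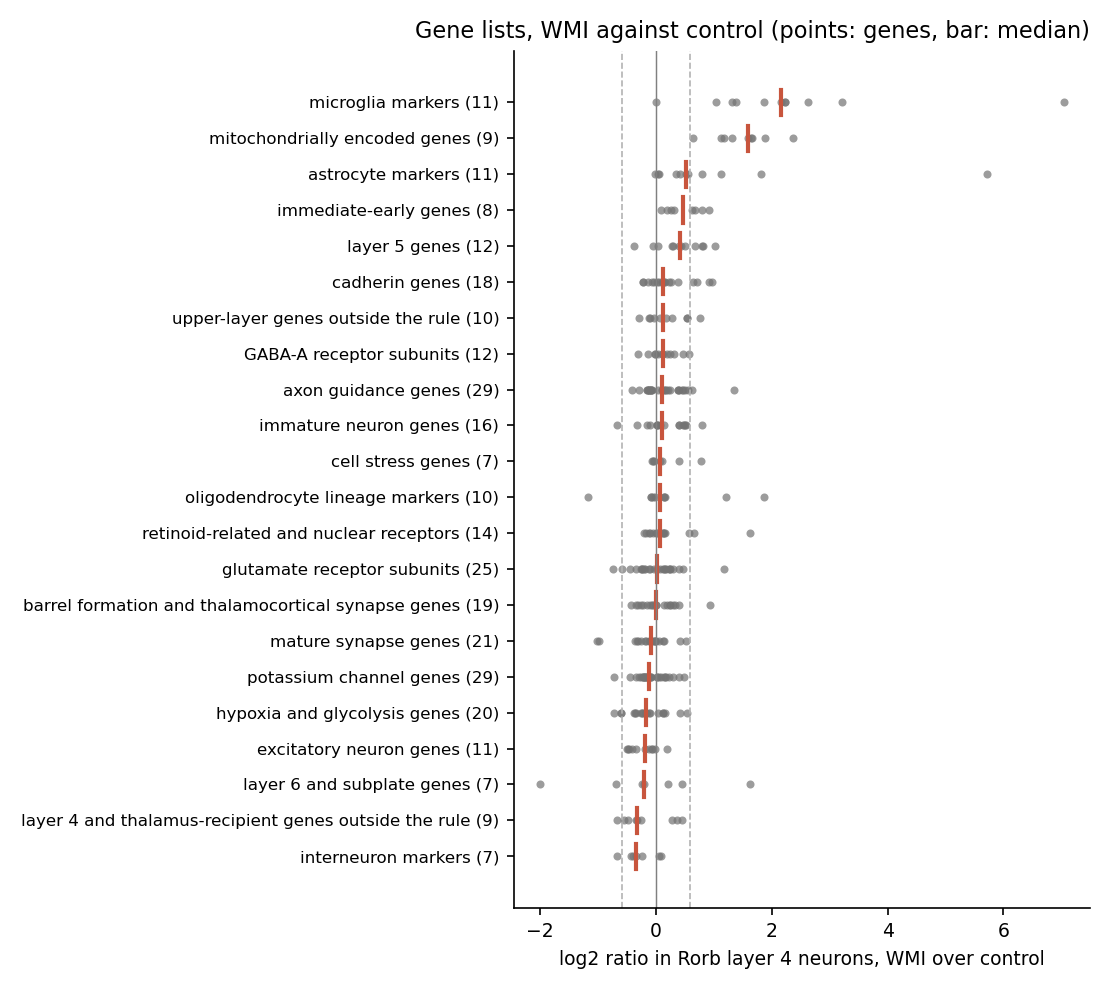
Log2 ratio, WMI over control, in the Rorb layer 4 neurons for each measured gene of the lists (grey points) with the median of each list (red bars), dashed lines at 1.5-fold and the number of measured genes in brackets. The vascular and sex chromosome lists are not shown. Microglia markers (median 2.15) and mitochondrially encoded genes (1.59) lie to the right, layer 4 genes (-0.33) to the left, and most neuronal lists near 0.

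Markers of other cells were found in the members of both libraries, those of astrocytes at the highest summed level, mostly from Slc1a2. Of 11 astrocyte markers 4 were higher in WMI members (6.44% of all genes were), with Gfap, a filament of reactive astrocytes, at 6 and 146 UMIs (log2 5.72), Aqp4 at 54 and 88 UMIs (1.82), Mt1 and Clu. Slc1a2, the glutamate transporter with the most UMIs of that list, was at 922 and 912 CPM. The summed list was at 1289 and 1424, against 725 and 677 in the upper-layer and 1283 and 1220 in the layer 6 set. Without Slc1a2 it was at 367 and 512, below the whole interneuron list in the control (573) and the whole microglia list in the WMI library (825). Of 10 measured oligodendrocyte lineage markers 2 were higher and 1 lower, against 6.44% and 5.97% of all genes, and 3 and 5 with male cells alone. The premyelinating genes Bcas1 (1.21) and Enpp6 (1.88) were higher and Mog (-1.17) lower, and the list summed to 180 and 223 CPM. The interneuron list summed to 573 and 476, mostly from Erbb4, with Sst at 189 and 55 UMIs (-0.66, and -0.29 with male cells alone). The vascular and meningeal list summed to 15.6 and 17.5 CPM with 0 genes measured. The part of these RNAs in the differences between the members was not tested.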

How the data were processed

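Droplet-based RNA sequencing of mouse cerebral cortex gave 1 control and 1 WMI library. The authors deposited raw UMI counts for each gene in each barcode, without normalization. They were made with Cell Ranger 6.1.1 per the file headers, and the submitters' processing notes name Seurat and mm9, whereas all 55450 gene identifiers matched GENCODE M21 on GRCm38, which is used for positions. Whether intronic reads were counted was not given in the sources used here. Symbols shared by several identifiers were summed.

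The rule for members, the comparison sets and the gene lists were chosen with earlier results of these data known. UMIs were summed over the cells of a set and scaled to 1000000 UMIs of the set (CPM). Excitatory barcodes held Slc17a7, at most 1 UMI of Gad1 and Gad2 and at least 3 of 6 genes, among them Neurod2, Neurod6, Arpp21, Tbr1 and Sv2b. Of the 24 lists, genes with at least 50 UMIs over members of both libraries were measured, and those past 1.5-fold were counted. Named were the rule genes, the 15 highest and 10 lowest genes against other excitatory barcodes by the weaker library, the 12 highest and 12 lowest between WMI and control among genes with at least 200 UMIs, and genes of the lists. Other genes past 2-fold, and the genes overlapping the lowest ones, were named after their values were seen. A few genes that these rules take in are not reported here.

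Intervals are Clopper-Pearson for shares, Poisson for levels and conditional binomial for ratios, all at 95%. For the share differences, the Clopper-Pearson limits of both shares were combined, which is approximate. Differences among mice are not part of any of these intervals, and cells are taken as independent. No statistical test was run. A count of 0 was set to 3 counts. The calculations of the ratios and the rule were tried on simulated data. Doublets were kept and, as an alternative, scored with scrublet in scanpy 1.11.5 and removed at 0.8% per 1000 barcodes. Further alternatives changed the rule, the limits, the depth, the sex of cells, the scaling, the weighting of cells, the count minimum and the comparison set. Scripts ran in Python 3.11.15 (scipy 1.17.1, numpy 2.4.6, pandas 2.3.3, matplotlib 3.10.9).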

Additional observations from a re-analysis of the deposited data

How the results depend on the processing

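No paired analysis was possible because each group had 1 library. The share difference stayed negative and none of the 24 named ratios between WMI and control changed sign under the alternatives run. Of 23 list medians 14 kept their sign under each alternative and 9, the farthest at 0.38 from 0, did not. Under a stricter rule (Rorb at least 5 UMIs and 3 of the 6 genes) there were 315 control and 107 WMI members. Their share of passing barcodes differed by -1.98 points. Of 4069 genes, 18 were at least 2-fold higher and 22 lower (44 and 32 of 6402 in the report). The medians were 1.14 for immediate-early genes, 1.32 for microglia markers and 0.74 for oligodendrocyte lineage markers. Under a looser rule (at least 2 UMIs and 1 gene, 1391 and 747 members) the share differed by -5.37 points (14.6% and 9.21% of passing barcodes). Of excitatory barcodes these members were 30.9% in the control and 24.8% in the WMI library. Of 9409 genes, 188 were higher and 68 lower. Against the other excitatory barcodes 56 genes were at least 2-fold above and 1 below, and Tnni1 turned to 0.54. The medians were -0.31 for excitatory neuron genes, -0.047 for GABA-A receptor subunits, 1.86 for mitochondrially encoded genes and 0.0011 for cadherins. Thinned to 4000 UMIs the share differed by -1.93 points. With male cells 55 of 5283 genes were lower and the sex chromosome median was 0.063. A minimum of 50 UMIs gave 212 higher and 222 lower genes of 11554, and one of 500 UMIs 18 and 12 of 3338. The astrocyte median was 0.063 for genes with at least 200 UMIs. Against the upper-layer set 57 genes were 2-fold above, and Tnni1 (0.56 in control), Syt6 (0.40 in control) and Hba-a2 (0.71 in WMI) turned in 1 library each. Barcodes found in both libraries were left out as an alternative chosen after seeing the data, with 34 of 6378 genes lower. Of the 12 highest and 12 lowest genes, 12 and 10 were then kept. The stricter rule kept 6 and 6, the looser rule 4 and 4 and male cells alone 5 and 7. Removal of predicted doublets kept 10 and 9 and equal weights of cells 11 and 11, and the other settings compared kept all of them. List genes with under 50 UMIs over the members of both libraries were not measured.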
